A study of Homo sapiens with 6 samples.

Results

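Box C/D, box H/ACA and Cajal body RNAs are small noncoding RNAs of the nucleus, and 257 of them were measured at 1 FPKM (fragments scaled by gene length and by library total) or more in every one of 6 libraries of human forebrain neuron progenitor cells. Genes were taken by symbol from a table of 59151 genes: those starting with SNORD as box C/D, SNORA as box H/ACA and SCARNA as Cajal body RNAs. The 78 rows of SNORD115 and SNORD116 copies were left out. Of 411 such rows at any level, 138 of 222 C/D, 98 of 160 H/ACA and 21 of 29 Cajal body rows reached the minimum. Members were thus chosen by their measured FPKM in all 6 libraries, and their levels are given as a description.

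The cells were derived from H9, an established line of human embryonic stem cells, and were taken at day 26. Groups were cells with the hairpin RNA shRNA1 against circRTN4(2,3), cells with a second hairpin, shRNA2, against the same circular RNA, and control cells given the scramble treatment (genotype WT), with 2 libraries each. The labels name no promoter or vector for the hairpins. circRTN4(2,3) is a circular RNA made from exons of RTN4, which codes for a membrane protein of the endoplasmic reticulum. The knockdown of the circle was not measured here, since a gene-level value does not separate circular from linear RNA. The gene RTN4 itself had 34.2 and 34.7 FPKM in shRNA1, 31.2 and 31.3 FPKM in shRNA2 and 40.3 and 38.5 FPKM in scramble. Both hairpins lay below scramble, and the difference did not pass in the mean of both hairpins against scramble (log2 fold change -0.26, SE 0.04, adjusted p = 0.135, limma with Benjamini-Hochberg adjustment over 18162 genes).

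Box C/D RNAs pair with ribosomal RNA (rRNA) and place a ribose methyl group through the methyltransferase fibrillarin, and a few instead serve the cleavage or acetylation of the rRNA precursor. Box H/ACA RNAs fold into hairpins and guide the pseudouridine synthase dyskerin. Cajal body RNAs carry either kind of box, or both, and guide the same modifications on spliceosomal RNAs. In human cells most are cut out of introns of a host gene, so their making depends on the transcription and splicing of that host.

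The following sequences show the box elements of members that the results turn on, as RefSeq symbols matched to GENCODE 29 transcripts of GRCh38. Capitals mark the C box (TGATGA) within the first 25 bases and the D box (CTGA) within the last 15 bases of the C/D RNAs. They mark the ACA within the last 6 bases of the H/ACA RNAs, and TGAG, the core of the Cajal body signal, with ACA in SCARNA22. SNORD111 was the only member past the test with all 6 libraries. SNORD20, SNORD12, SNORD59A, SNORA21B and SCARNA22 did not pass but were among those with the smallest p of their class in at least 1 comparison, and in SNORA63 and SNORA49 the 2 scramble libraries lay far apart.
SNORD111: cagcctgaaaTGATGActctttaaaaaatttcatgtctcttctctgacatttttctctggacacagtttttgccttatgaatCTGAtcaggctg
SNORD20: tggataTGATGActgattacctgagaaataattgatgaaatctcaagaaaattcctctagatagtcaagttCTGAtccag
SNORD12: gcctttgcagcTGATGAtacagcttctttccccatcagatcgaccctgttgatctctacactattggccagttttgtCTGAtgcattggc
SNORD59A: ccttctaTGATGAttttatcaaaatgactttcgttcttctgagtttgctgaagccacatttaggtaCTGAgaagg
SNORA21B: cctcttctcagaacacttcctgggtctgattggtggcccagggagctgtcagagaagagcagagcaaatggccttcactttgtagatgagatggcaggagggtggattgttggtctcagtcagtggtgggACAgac
SNORA63: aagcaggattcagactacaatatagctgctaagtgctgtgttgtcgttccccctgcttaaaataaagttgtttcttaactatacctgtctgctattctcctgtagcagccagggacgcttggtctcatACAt
SNORA49: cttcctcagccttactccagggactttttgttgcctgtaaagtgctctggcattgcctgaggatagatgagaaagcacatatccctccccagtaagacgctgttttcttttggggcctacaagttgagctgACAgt
SCARNA22: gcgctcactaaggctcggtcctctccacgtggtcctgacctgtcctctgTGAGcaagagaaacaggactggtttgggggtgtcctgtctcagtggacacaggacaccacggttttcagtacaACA
SNORD111 lies at chr16:70538005-70538098 on the plus strand, in an intron of SF3B3, SNORD20 at chr2:231456444-231456523 on the minus strand in an intron of NCL, and SNORD59A at chr12:56645027-56645101 on the minus strand in an intron of ATP5F1B. SNORD12 lies at chr20:49280683-49280772 on the plus strand, within an annotated exon of ZFAS1. SNORA21B lies at chr17:38851524-38851659 on the minus strand in an intron of RPL23, SNORA63 at chr3:186787300-186787431 on the plus strand in an intron of EIF4A2, SNORA49 at chr12:132031224-132031359 on the plus strand in an intron of EP400, and SCARNA22 at chr4:1974636-1974760 on the plus strand in an intron of NSD2.

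Members with a single GENCODE transcript were searched for these boxes. Both C/D boxes were found in 67 of 107 C/D members (62.6%), against 183 of 266 (68.8%) of all annotated C/D transcripts. Those 266 transcripts were not limited to the 222 C/D rows that leave out SNORD115 and SNORD116 copies. The shares of 62.6% and 68.8% thus compare unlike sets. Of H/ACA members 71 of 79 (89.9%) held the terminal ACA, against 121 of 135 (89.6%) of all annotated H/ACA transcripts. The ACA stood at the same place in 11 of 107 C/D members (10.3%) and 10 of 16 Cajal body members (62.5%). TGAG was present in 14 of 16 Cajal body, 33 of 79 H/ACA and 80 of 107 C/D members. All were read on the RNA's own strand, and a match is a string of letters, not a measured site.

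SNORD141A and SNORD141B are printed apart because the annotated stretch of each is also part of a messenger RNA. SNORD141A lies at chr9:133020430-133020534, in an exon of the processed pseudogene EEF1A1P5, and SNORD141B at chr5:14652278-14652382, in an exon of EEF1A1P13. Each matched the mRNA of EEF1A1, which codes for translation elongation factor eEF1A1, at 105 of 105 bases, with 0 mismatches. TGATGA and CTGA were not found together in their windows on either strand; the CTGA near the end of the printed stretch stands without a TGATGA in its window.
SNORD141A: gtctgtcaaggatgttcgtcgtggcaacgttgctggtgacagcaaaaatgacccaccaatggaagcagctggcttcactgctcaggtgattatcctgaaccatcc
Reads of the 3 loci cannot be told apart by this stretch, so values of SNORD141A and SNORD141B are uncertain as values of a C/D RNA.

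Levels spanned 3 orders of magnitude. Mean levels over the 6 libraries ran between 1.29 and 2266 FPKM in C/D RNAs with a median of 4.998 FPKM, between 1.49 and 122 FPKM in H/ACA RNAs with a median of 3.98 FPKM, and between 1.45 and 420.0 FPKM in Cajal body RNAs with a median of 8.49 FPKM. Between 1 and 5 FPKM lay 69 of 138 C/D, 58 of 98 H/ACA and 8 of 21 Cajal body RNAs, and over 100 FPKM 6, 1 and 4 of them. Together the members took between 2.76% and 3.60% of all FPKM in a library. Just inside the minimum, the lowest values were 1.001 FPKM in SNORA29, 1.01 FPKM in SNORD48 and 1.02 FPKM in SNORA50B. Just outside it were SNORD119 at 0.977 FPKM, SNORA15B-2 at 0.974 FPKM and SNORA16B at 0.960 FPKM.

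**Figure D1:**
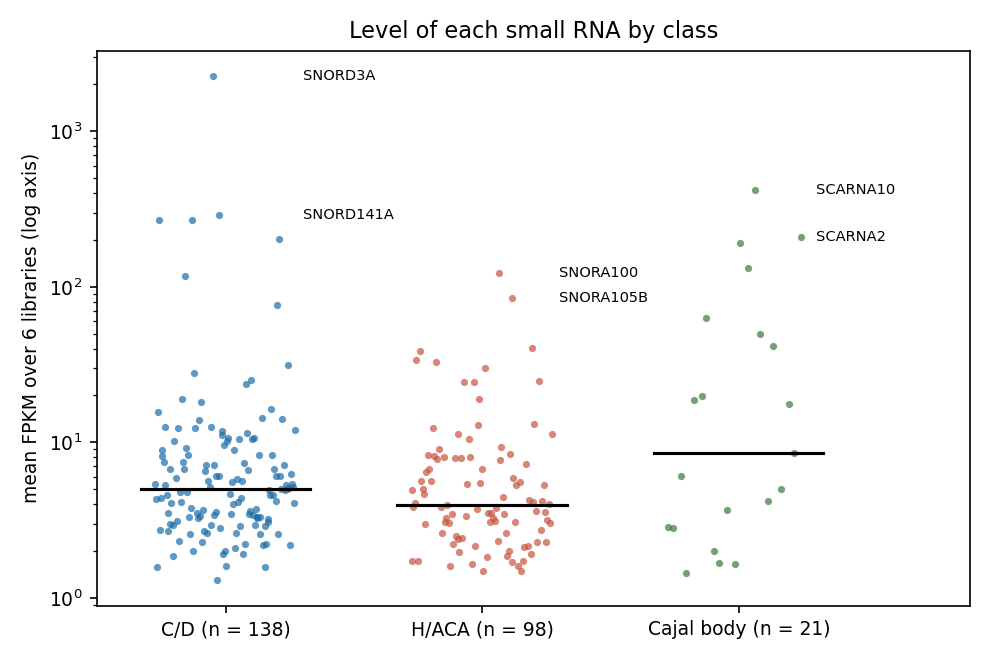
Mean level over 6 libraries of each member in FPKM (log axis), by class; each point is 1 small RNA and each bar the class median. Medians were 4.998 FPKM for C/D, 3.98 FPKM for H/ACA and 8.49 FPKM for Cajal body RNAs, and SNORD3A stood highest at 2266 FPKM.

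The genes of U3 (SNORD3A, SNORD3B-1, SNORD3B-2, SNORD3C and SNORD3D) held between 59.0% and 74.3% of the C/D FPKM of a library. U3 is the C/D RNA that serves the early cleavages of the 18S rRNA precursor. SNORD3A had 2536 and 2091 FPKM in shRNA1, 2174 and 2375 FPKM in shRNA2 and 1354 and 3065 FPKM in scramble. SNORD3B-1 had 296 and 228 FPKM in shRNA1, 234 and 271 FPKM in shRNA2 and 142 and 452 FPKM in scramble. In both, scramble replicate 1 was the lowest and scramble replicate 2 the highest of the 6 libraries. SNORD3C had 281 and 247 FPKM in shRNA1, 247 and 274 FPKM in shRNA2 and 190.001 and 372 FPKM in scramble. SNORD3D had 213 and 196 FPKM in shRNA1, 174 and 176 FPKM in shRNA2 and 164 and 301 FPKM in scramble. SNORD3B-2 stood lower, at 20.3 and 20.7 FPKM in shRNA1, 19.7 and 22.9 FPKM in shRNA2 and 22.7 and 35.99 FPKM in scramble. The knockdown libraries lay between the scramble libraries for SNORD3A, SNORD3B-1, SNORD3C and SNORD3D. The FPKM steps of SNORD3A fit its GENCODE length, which exceeds its RefSeq length, so its level per length depends on the annotation. These copies are near-identical, and how reads were split among them was not given in the sources used here.

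SNORD118 (U8), which serves the maturation of 5.8S and 28S rRNA, had 12.002 and 11.8 FPKM in shRNA1, 11.5 and 10.5 FPKM in shRNA2 and 11.6 and 11.4 FPKM in scramble. It lies within an exon of TMEM107 and had the smallest spread between replicates of all C/D members. SNORD13, a guide of 18S rRNA acetylation, had 11.2 and 9.35 FPKM in shRNA1, 8.61 and 11.6 FPKM in shRNA2 and 6.74 and 15.9 FPKM in scramble. SNORD22 (U22), of 18S rRNA maturation, had 7.60 and 7.52 FPKM in shRNA1, 9.77 and 9.17 FPKM in shRNA2 and 9.36 and 10.3 FPKM in scramble. The shRNA1 libraries lay below the other 4 (log2 fold change of shRNA1 against scramble -0.34, SE 0.06, adjusted p = 0.301, limma with Benjamini-Hochberg adjustment). The 5 copies of SNORD14 (U14) ranged from 1.22 FPKM in scramble replicate 1 for SNORD14C to 5.48 FPKM in shRNA1 replicate 1 for SNORD14A. SNORA73A and SNORA73B (U17, both from SNHG3), which serve 18S rRNA maturation, are the H/ACA members of this group. SNORA73B had 32.98 and 36.5 FPKM in shRNA1, 41.2 and 43.1 FPKM in shRNA2 and 24.3 and 53.6 FPKM in scramble. SNORA73A had 22.3 and 21.8 FPKM in shRNA1, 24.9 and 27.3 FPKM in shRNA2 and 17.01 and 32.3 FPKM in scramble. Scramble replicate 1 was lowest and scramble replicate 2 highest for both. Of 15 listed RNAs of rRNA precursor cleavage or acetylation, 0 passed in any of the 4 comparisons, and their median log2 fold change of knockdown against scramble was -0.02, against -0.03 over all genes.

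The highest H/ACA RNAs included 2 of exonic loci. SNORA100, which lies in an exon of HNRNPU, had 115 and 127 FPKM in shRNA1, 115 and 123 FPKM in shRNA2 and 132 and 121 FPKM in scramble. SNORA105B, in an exon of HSPD1, had 85.4 and 83.7 FPKM in shRNA1, 86.2 and 80.9 FPKM in shRNA2 and 92.8 and 77.7 FPKM in scramble. In these exonic cases mRNA fragments and small RNA reads share the same bases, and their parts were not separated. SNORA103, in GAS5, had 40.4 and 41.9 FPKM in shRNA1, 39.05 and 36.7 FPKM in shRNA2 and 41.5 and 41.5 FPKM in scramble. SNORA12, in CWF19L1, had 33.5 and 33.5 FPKM in shRNA1, 31.3 and 37.9 FPKM in shRNA2 and 24.1 and 41.8 FPKM in scramble. In SNORA12 the scramble libraries were both ends of the range, as they were not in SNORA103.

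Cajal body RNAs led with SCARNA10 (U85), which carries both kinds of box and guides U5 RNA. SCARNA10 had 395 and 409 FPKM in shRNA1, 381 and 442 FPKM in shRNA2 and 449 and 444 FPKM in scramble. SCARNA2, a guide of U2 RNA, had 223 and 210.2 FPKM in shRNA1, 215 and 178 FPKM in shRNA2 and 135 and 289 FPKM in scramble. The scramble libraries of SCARNA2 were both ends of its range, while those of SCARNA10 were its 2 highest values. SCARNA7 had 203 and 192 FPKM in shRNA1, 161 and 167 FPKM in shRNA2 and 213 and 213 FPKM in scramble. SCARNA21 had 142 and 140.01 FPKM in shRNA1, 115 and 135 FPKM in shRNA2 and 115 and 151 FPKM in scramble. SCARNA5 had 63.1 and 65.8 FPKM in shRNA1, 56.02 and 62.3 FPKM in shRNA2 and 59.9 and 69.3 FPKM in scramble. SCARNA7 was lowest in the shRNA2 libraries, which overlapped no other group. In SCARNA21 and SCARNA5 each hairpin overlapped scramble, while both shRNA2 libraries lay below both shRNA1 libraries.

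Depth set how far a single member could be read. Totals worked out from the smallest FPKM steps of each library were 82353637 and 78488667 reads in shRNA1, 83629504 and 79949303 reads in shRNA2, and 46634855 and 77187298 reads in scramble, so scramble replicate 1 was the shallowest. For 237 members with a fitting gene length, the median member had 36.8 reads per library, 30.5 in C/D, 43.5 in H/ACA and 105 in Cajal body RNAs. A floor of 3 reads on 100 bases corresponds to between 0.359 and 0.643 FPKM, and such floors cover counting error only.

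Replicates differed more for these RNAs than for genes at large. On the log2(FPKM + 1) scale the median pooled SD between the 2 libraries of a group was 0.25 in C/D, 0.24 in H/ACA and 0.19 in Cajal body RNAs, against 0.09 over the 18162 genes with a mean of 1 FPKM or more. By group, the median SD of C/D RNAs was 0.15 in shRNA1, 0.14 in shRNA2 and 0.23 in scramble. That of H/ACA RNAs was 0.14, 0.14 and 0.20 in the same order of groups, and that of Cajal body RNAs 0.07, 0.14 and 0.22. Over all genes it was 0.04, 0.05 and 0.11, so scramble was the group with the largest spread there too. The spread was a median of 1.15 times the SD that counting reads alone would give, and 41 of 237 members exceeded 2 times that SD. The largest pooled SDs were those of SNORD3B-1, SNORD78 and SNORD38C among C/D, SNORA17B, SNORA54 and SNORA48 among H/ACA, and SCARNA2, SCARNA13 and SCARNA26A among Cajal body RNAs. The smallest were those of SNORD118, SNORD107 and SNORD22, of SNORA21B, SNORA103 and SNORA81, and of SCARNA7, SCARNA18 and SCARNA9.

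The 2 scramble libraries differed mostly in 1 direction, less so in C/D RNAs than in the other classes. Replicate 2 minus replicate 1 had a median of 0.16 (log2) over the 257 members in scramble, with 166 of 257 higher in replicate 2, against -0.03 in shRNA1 and 0.07 in shRNA2, and 0.04 over all genes in scramble. By class the scramble median of this difference was 0.09 in C/D, 0.23 in H/ACA and 0.31 in Cajal body RNAs. Higher in replicate 2 were 81 of 138 C/D, 70 of 98 H/ACA and 15 of 21 Cajal body RNAs, beside 10285 of 18162 genes. By length the scramble median was 0.03 for 113 RNAs of up to 100 bases, 0.23 for 101 RNAs of 101 to 140 bases and 0.43 for 43 longer RNAs. Class and length go together, with median lengths of 76, 135 and 194 bases in the same order of classes. Their parts were not tested apart. Across the 257 members, which share these libraries, Spearman's rho of the scramble difference with length was 0.26, against -0.04 in shRNA1 and 0.01 in shRNA2. SNORA63, whose host EIF4A2 is a translation initiation factor, had 32.02 and 29.9 FPKM in shRNA1, 35.6 and 41.4 FPKM in shRNA2 and 17.8 and 40.1 FPKM in scramble. SNORA49 had 24.7 and 25.9 FPKM in shRNA1, 32.6 and 37.98 FPKM in shRNA2 and 16.3 and 41.5 FPKM in scramble. SNORA48, in an intron of EIF4A1, had 26.2 and 18.6 FPKM in shRNA1, 24.3 and 28.3 FPKM in shRNA2 and 14.7 and 36.3 FPKM in scramble. In these H/ACA RNAs scramble replicate 1 was below every other library.
Structured RNAs picked from other families, RN7SL1 and RMRP, differed likewise. RN7SL1, the RNA of the signal recognition particle, had 14156 and 12292 FPKM in shRNA1, 10529 and 9124 FPKM in shRNA2 and 7787 and 20066 FPKM in scramble. RMRP, an RNA of rRNA precursor cleavage, had 3103 and 3272 FPKM in shRNA1, 3449 and 3343 FPKM in shRNA2 and 2041 and 3686 FPKM in scramble. In RNU1-1 and RNU12, whose values are given below, both scramble libraries were above the other groups instead. In 51 of 257 members (19.8%) the scramble libraries were the lowest and the highest of all 6, against 15.4% of all genes. Replicate 1 was the lowest in 41 of these 51, beside 1825 of 2793 such genes. By class such members were 23 of 138 C/D (16.7%), 23 of 98 H/ACA (23.5%) and 5 of 21 Cajal body RNAs (23.8%), with replicate 1 lowest in 15, 21 and 5. Depth also differed between the scramble libraries, and its part in this was not tested.

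**Figure D2:**
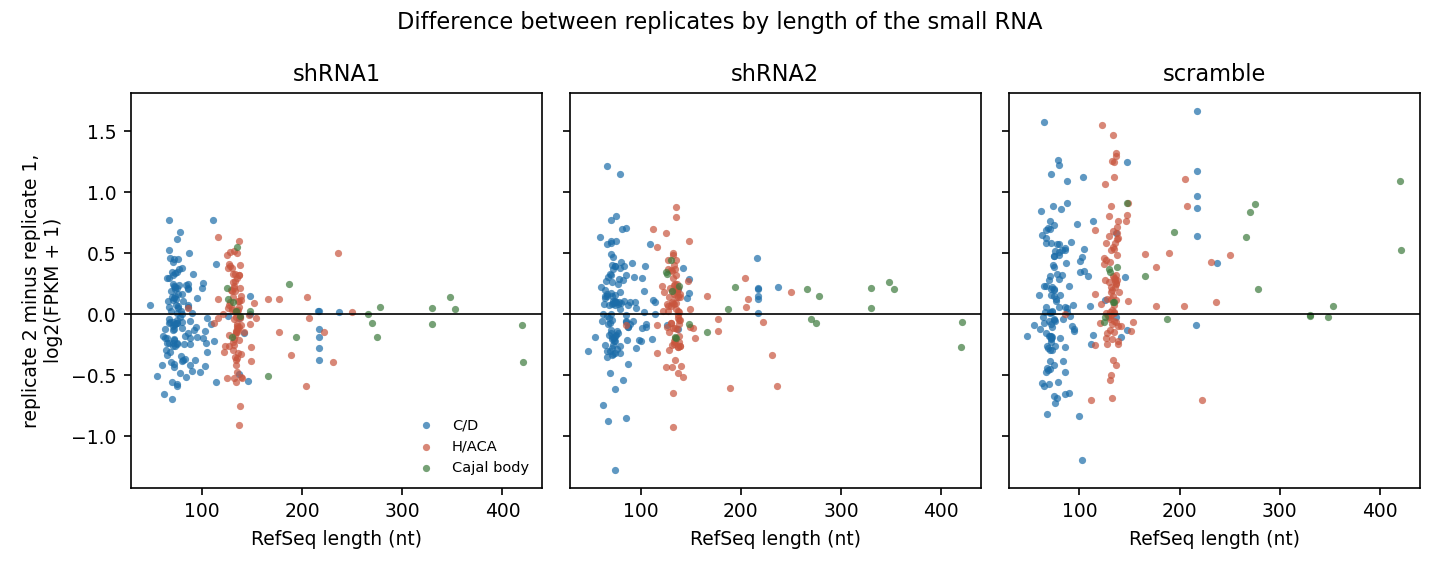
Replicate 2 minus replicate 1 in log2(FPKM + 1) (vertical axis) by RefSeq length in bases (horizontal axis) for the 257 members, in shRNA1, shRNA2 and scramble; colours are the classes. For RNAs over 140 bases the median is -0.07 in shRNA1, 0.13 in shRNA2 and 0.43 in scramble.

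Against this spread, the question was whether these RNAs changed with the knockdown of circRTN4(2,3). It was tested with limma on log2(FPKM + 1) over 18162 genes with Benjamini-Hochberg adjustment, called at an adjusted p under 0.05. The p-values measure the spread between these libraries, since the labels do not say that replicates came from separate cultures. In the mean of both hairpins against scramble, 0 of 257 members passed, where 0.0826% of all genes did (15 genes), and 28 members had an unadjusted p under 0.05, where 13.8% of all genes did. The smallest adjusted p among members was 0.115. With shRNA1 against scramble 0 members passed, beside 0.033% of all genes, and 13 had an unadjusted p under 0.05, beside 8.97%. With shRNA2 against scramble 1 member passed, SNORD111, which was higher, beside 0.628% of all genes (0.187% in that direction), and 28 had an unadjusted p under 0.05, beside 19.2%. Between shRNA2 and shRNA1, 0 members and 0% of all genes passed, and 22 members had an unadjusted p under 0.05, beside 16.1%. The median SE of a member was 0.17 for the mean of both hairpins, against 0.07 over all genes. The comparisons with scramble share its 2 libraries. As this is bulk RNA, fewer cells of a type and less RNA per cell cannot be told apart.

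Classes stayed close to no change. The median log2 fold change of knockdown against scramble was 0.04 in C/D, 0.06 in H/ACA and -0.06 in Cajal body RNAs, against -0.03 over all genes. For shRNA1 against scramble these medians were 0.02, 0.03 and -0.08 in the same order of classes, against -0.003 over all genes, and for shRNA2 against scramble 0.03, 0.10 and -0.07, against -0.06. The signs were positive in 74 of 138 C/D, 63 of 98 H/ACA and 8 of 21 Cajal body RNAs for knockdown against scramble, beside 36.9% of all genes. All 4 knockdown libraries lay above both scramble libraries in 15 members (5.84%), beside 5.87% of all genes, and below both in 13 members (5.06%), beside 12.6%. Leaving out scramble replicate 1 turned the H/ACA median of knockdown against scramble to -0.10 and the C/D median to -0.04, and leaving out scramble replicate 2 turned the Cajal body median to 0.19.

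**Figure D3:**
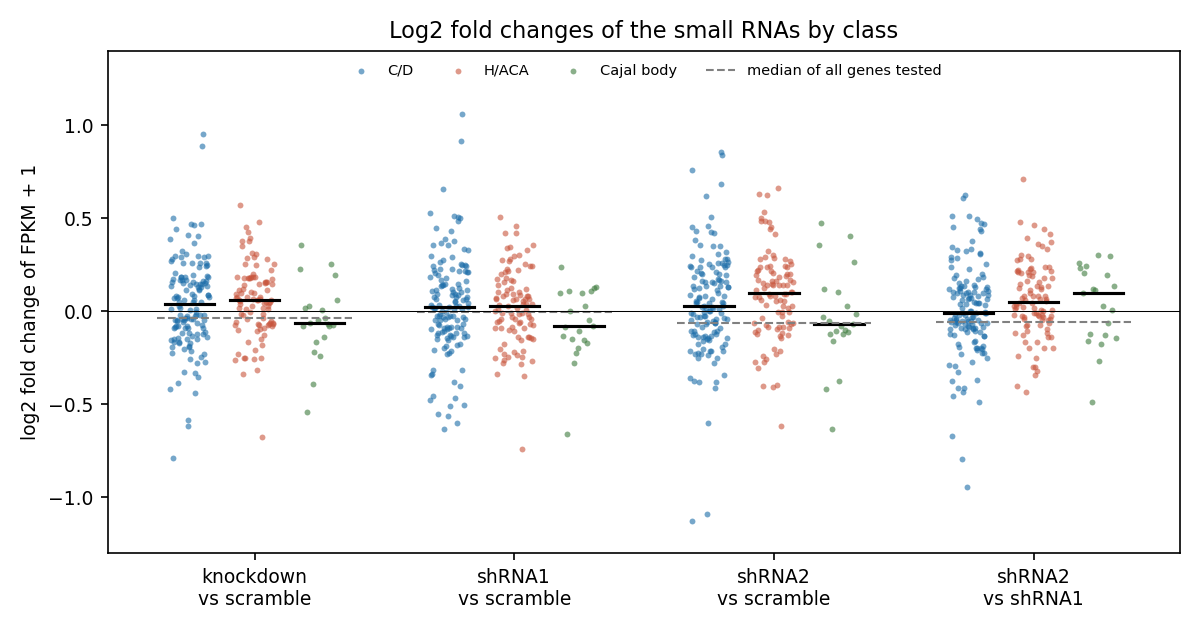
Log2 fold changes on the log2(FPKM + 1) scale (vertical axis) of each member by class in the 4 comparisons; bars are class medians and dashed lines the median of all 18162 genes tested. Class medians lie between -0.08 and 0.10 in every comparison shown.

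SNORD111 rose in shRNA2 against scramble. It had 2.84 and 2.58 FPKM in shRNA1, 4.52 and 4.92 FPKM in shRNA2 and 2.62 and 2.83 FPKM in scramble. Both shRNA2 libraries were above the other 4, and shRNA1 overlapped scramble. The log2 fold change of shRNA2 against scramble was 0.62 (SE 0.07, adjusted p = 0.0496, limma with Benjamini-Hochberg adjustment), and that of shRNA2 against shRNA1 0.63 (adjusted p = 0.0976). The value rests on a median of 21.3 reads per library. Alternatives under which the call was lost included a pseudocount of 0.1, no filter on low levels, no trend in the prior, only the shRNA2 and scramble libraries in the fit, centring on the members, and leaving out any 1 of the shRNA1 or shRNA2 libraries (adjusted p = 0.367 without shRNA2 replicate 1, 0.351 without shRNA2 replicate 2, 0.204 without shRNA1 replicate 1 and 0.203 without shRNA1 replicate 2).

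In the other comparisons no C/D RNA passed. SNORD20, of the nucleolin gene NCL, had 6.37 and 5.81 FPKM in shRNA1, 6.58 and 5.08 FPKM in shRNA2 and 2.14 and 3.48 FPKM in scramble. All 4 knockdown libraries were above both scramble libraries (log2 fold change 0.89, SE 0.17, adjusted p = 0.163). SNORD12 had 4.54 and 4.60 FPKM in shRNA1, 6.92 and 6.50 FPKM in shRNA2 and 6.29 and 7.58 FPKM in scramble, with shRNA1 alone below the rest. Its log2 fold change of shRNA1 against scramble was -0.51 (SE 0.09, adjusted p = 0.298), and its log2 difference of shRNA2 minus shRNA1 was 0.47 (adjusted p = 0.149). SNORD59A had 4.78 and 4.59 FPKM in shRNA1, 3.75 and 3.09 FPKM in shRNA2 and 2.86 and 3.28 FPKM in scramble, with shRNA1 highest and shRNA2 overlapping scramble. Its log2 fold change of shRNA1 against scramble was 0.48 (SE 0.10, adjusted p = 0.308). SNORD19B, in GNL3, had 6.14 and 4.52 FPKM in shRNA1, 2.25 and 3.03 FPKM in shRNA2 and 3.11 and 2.86 FPKM in scramble, and differed by -0.80 between shRNA2 and shRNA1 (adjusted p = 0.157). All these p-values come from limma with Benjamini-Hochberg adjustment over all genes.

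The most negative fold changes of shRNA2 against scramble belonged to the 2 loci inside elongation factor pseudogenes. SNORD141A had 332 and 326 FPKM in shRNA1, 176 and 164 FPKM in shRNA2 and 322 and 411 FPKM in scramble. SNORD141B had 13.97 and 11.1 FPKM in shRNA1, 7.69 and 7.21 FPKM in shRNA2 and 14.3 and 21.2 FPKM in scramble. Both shRNA2 libraries were lowest in each. The log2 fold changes of shRNA2 against scramble were -1.09 (adjusted p = 0.0536) and -1.13 (adjusted p = 0.0867), neither past the test (limma with Benjamini-Hochberg adjustment). The mRNA that shares all their bases, EEF1A1, had 178 and 181 FPKM in shRNA1, 92.5 and 90.98 FPKM in shRNA2 and 207 and 212 FPKM in scramble. It fell by 1.18 on the log2 scale in shRNA2 against scramble (adjusted p = 0.0182), and the pseudogene EEF1A1P5 fell by 1.17 (adjusted p = 0.0393, limma with Benjamini-Hochberg adjustment). EEF1A1P5 was the only one of 139 tested host genes to pass in that comparison.

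Among H/ACA RNAs, SNORA21B had the smallest p in knockdown against scramble. It had 2.41 and 2.48 FPKM in shRNA1, 2.11 and 2.21 FPKM in shRNA2 and 3.15 and 3.19 FPKM in scramble. The scramble libraries were above all others and shRNA2 below all others (knockdown against scramble -0.34, SE 0.05, adjusted p = 0.115, limma with Benjamini-Hochberg adjustment). SNORA24B, in PARP16, had 1.11 and 1.65 FPKM in shRNA1, 1.28 and 1.91 FPKM in shRNA2 and 3.76 and 2.27 FPKM in scramble, lower in all 4 knockdown libraries with wide scatter in scramble (-0.68, adjusted p = 0.260). SNORA2A, in KANSL2, had 5.04 and 6.42 FPKM in shRNA1, 5.40 and 6.995 FPKM in shRNA2 and 4.13 and 4.41 FPKM in scramble. SNORA66, in RPL5, had 3.10 and 3.16 FPKM in shRNA1, 3.73 and 3.06 FPKM in shRNA2 and 2.34 and 2.82 FPKM in scramble. Both were higher in all 4 knockdown libraries without passing (0.39, adjusted p = 0.287, and 0.25, adjusted p = 0.331, limma with Benjamini-Hochberg adjustment). SNORA55, in PABPC4, had 1.60 and 2.93 FPKM in shRNA1, 3.49 and 2.74 FPKM in shRNA2 and 1.49 and 1.70 FPKM in scramble. SNORA33, in RPS12, had 6.07 and 5.30 FPKM in shRNA1, 3.99 and 4.89 FPKM in shRNA2 and 6.37 and 5.99 FPKM in scramble. For shRNA2 against scramble SNORA55 differed by 0.66 (adjusted p = 0.201) and SNORA33 by -0.41 (adjusted p = 0.151, limma with Benjamini-Hochberg adjustment), and shRNA1 overlapped scramble in each. SNORA6 and SNORA26 had adjusted p-values of 0.567 for shRNA1 against scramble and 0.210 for shRNA2 against shRNA1 in the same limma fit with Benjamini-Hochberg adjustment.

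Among Cajal body RNAs, SCARNA22 (ACA11), known from its overexpression in myeloma with a translocated NSD2, had 13.5 and 15.8 FPKM in shRNA1, 15.4 and 19.8 FPKM in shRNA2 and 24.2 and 23.1 FPKM in scramble. The scramble libraries were above all 4 knockdown libraries (-0.54, SE 0.12, adjusted p = 0.183, limma with Benjamini-Hochberg adjustment). SCARNA7, with the values given above, differed by -0.37 in shRNA2 against scramble (SE 0.07, adjusted p = 0.0921) and by -0.27 in shRNA2 against shRNA1 (adjusted p = 0.199). SCARNA27, in EEF1E1, had 2.60 and 2.93 FPKM in shRNA1, 2.94 and 3.97 FPKM in shRNA2 and 2.21 and 2.16 FPKM in scramble. Its 4 knockdown libraries were above scramble (0.36, adjusted p = 0.260). SCARNA18B, in UCHL5, had 1.62 and 2.83 FPKM in shRNA1, 1.42 and 1.11 FPKM in shRNA2 and 2.38 and 2.64 FPKM in scramble, with shRNA2 lowest (shRNA2 against scramble -0.63, adjusted p = 0.183). For SCARNA9L, SCARNA18 and SCARNA23 the smallest adjusted p over the 4 comparisons was 0.402, 0.333 and 0.332 in that order, by limma with Benjamini-Hochberg adjustment.

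**Figure D4:**
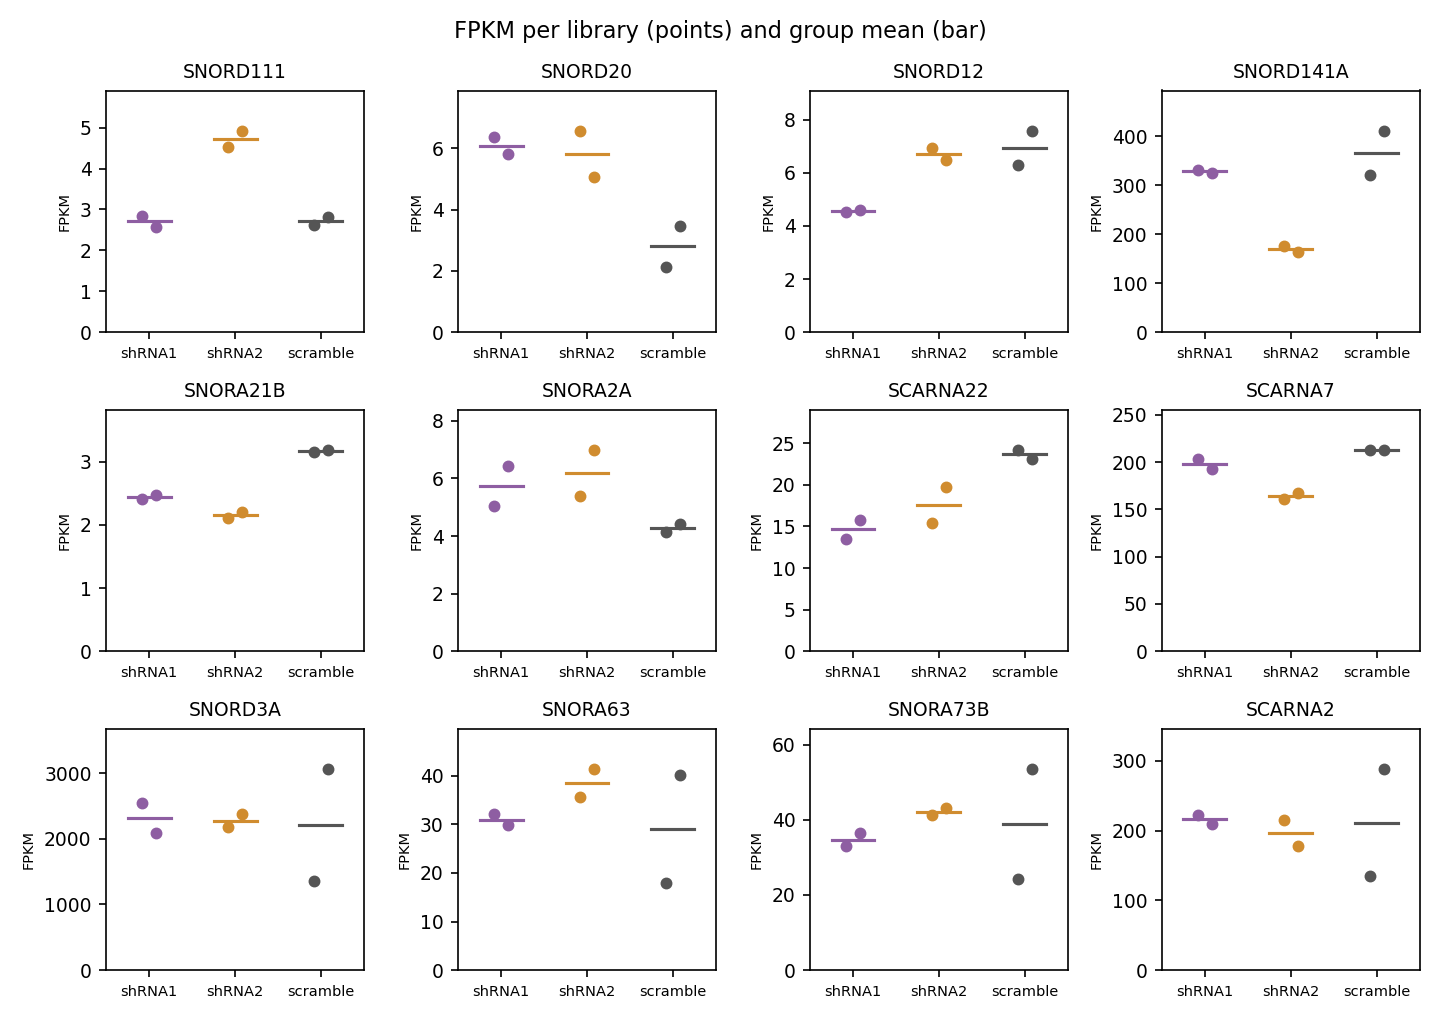
FPKM per library (points) and group mean (bars) of 12 small RNAs in shRNA1, shRNA2 and scramble, each panel starting at 0. SNORD111 is high in shRNA2 alone, SNORA21B and SCARNA22 are lower in all 4 knockdown libraries, and in SNORD3A, SNORA73B and SCARNA2 the 2 scramble libraries lie at both ends of the range.

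Many calls depended on which scramble libraries were in the fit. This was seen when each was left out and the lone one was assumed to vary like the other groups. Leaving out either also took the difference between the 2 scramble libraries out of the shared estimate of the spread. Without scramble replicate 1, 10 members passed for knockdown against scramble, all lower, beside 2.37% of all genes lower and 0.418% higher: SNORD12, SNORD141A, SNORD3B-2, SNORD3D, SNORD55, SNORD70, SNORA2C, SNORA61, SCARNA12 and SCARNA26A. Without scramble replicate 2, 0 members passed there, beside 0.00551% of all genes. For shRNA2 against scramble 18 members passed without replicate 1, 15 lower and 3 higher, beside 11.5% of all genes lower and 1.77% higher. Without replicate 2, 15 passed, 12 higher and 3 lower, beside 0.771% of all genes higher and 2.17% lower. Of the 6 members called in both, SNORD111 was higher and SNORD35A and SNORD141A were lower each time, while SCARNA12, SNORA2C and SNORA3A took opposite directions. SNORA2C had 8.23 and 8.97 FPKM in shRNA1, 9.73 and 9.68 FPKM in shRNA2 and 5.14 and 14.3 FPKM in scramble. SCARNA12 had 21.4 and 20.4 FPKM in shRNA1, 18.8 and 18.3 FPKM in shRNA2 and 14.2 and 26.1 FPKM in scramble. SNORA3A had 3.41 and 3.56 FPKM in shRNA1, 3.17 and 2.98 FPKM in shRNA2 and 1.87 and 4.02 FPKM in scramble. All 4 knockdown libraries lay between the scramble libraries in these 3 RNAs. SNORD35A had 2.21 and 2.35 FPKM in shRNA1, 2.25 and 2.13 FPKM in shRNA2 and 4.70 and 3.11 FPKM in scramble, with all 4 knockdown libraries below both scramble libraries. With all 6 libraries SNORD35A did not pass in shRNA2 against scramble (-0.60, adjusted p = 0.152, limma with Benjamini-Hochberg adjustment). The fits without a scramble library share the same shRNA2 libraries.

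In the comparison of the hairpins with each other, the scramble libraries enter only through the shared estimate of the spread. When either is left out, the lone one adds no spread of its own. Both such fits then rest on the same shRNA1 and shRNA2 libraries, so their agreement was built in and is not repeat support. For shRNA2 against shRNA1, 7 members passed when either scramble library was left out, the same 7 both times, of which 5 were higher and 2 lower in shRNA2. Over all genes 0.859% were higher and 4.53% lower without replicate 1, and 0.947% higher and 4.72% lower without replicate 2. The higher members were SNORD111, SNORD12, SNORD22, SNORD70 and SNORA71A, and the lower ones SNORD141A and SNORD87. SNORA71A had 7.30 and 7.16 FPKM in shRNA1, 9.27 and 8.97 FPKM in shRNA2 and 5.31 and 9.34 FPKM in scramble. SNORD70 had 1.79 and 1.45 FPKM in shRNA1, 3.13 and 2.84 FPKM in shRNA2 and 1.95 and 4.56 FPKM in scramble. SNORD87 had 7.37 and 7.68 FPKM in shRNA1, 5.02 and 5.44 FPKM in shRNA2 and 9.40 and 5.29 FPKM in scramble. The shRNA2 and shRNA1 libraries did not overlap in any of these, which were chosen by their calls in this same comparison. Over all genes, shRNA2 lay above shRNA1 without overlap in 16.6% and below it in 46.6%. With all 6 libraries the adjusted p-values of these members ran between 0.0976 for SNORD111 and 0.556 for SNORA71A (limma with Benjamini-Hochberg adjustment).

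Most members sat inside host genes. By GENCODE 29, 118 of 138 C/D, 86 of 98 H/ACA and 19 of 21 Cajal body RNAs were intronic, 16, 11 and 2 lay at least 50% within an exon, and 4 C/D and 1 H/ACA lay outside genes. Altogether 247 members had 1 of 151 hosts, of which 49 held more than 1 member. Measured per length, 84 of 238 members with a host level were above their host (35.3%), namely 33 of 125 C/D, 39 of 93 H/ACA and 12 of 20 Cajal body RNAs. In gene-level values, reads of an intronic RNA cannot be told from unspliced RNA of a host on the same strand.

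GAS5, a noncoding host gene, held 11 members with mean levels between 3.43 and 40.2 FPKM, against 5.997 FPKM for GAS5 itself, and 8 of them were above it. Its introns carry SNORD44, SNORD47, SNORD75, SNORD76, SNORD77, SNORD78, SNORD79, SNORD80, SNORD81 and SNORA103, and SNORD74 lies within an annotated exon. SNORA103 was highest and SNORD75 lowest. SNORD78 had 6.37 and 5.27 FPKM in shRNA1, 5.83 and 6.49 FPKM in shRNA2 and 1.92 and 7.68 FPKM in scramble, so that scramble replicate 1 was the lowest library and replicate 2 the highest. SNORD47 had 16.7 and 19.97 FPKM in shRNA1, 16.6 and 14.998 FPKM in shRNA2 and 14.6 and 15.9 FPKM in scramble, with shRNA1 above the other groups, which overlapped. SNHG1 held 8 C/D RNAs, SNORD22 and SNORD25 to SNORD31, between 5.61 and 14.2 FPKM, 7 of them above the 6.95 FPKM of SNHG1. TAF1D, a gene of the RNA polymerase I machinery, held 6 H/ACA and 2 C/D RNAs between 1.73 and 13.1 FPKM, 7 of them above its 4.09 FPKM. EIF4A2 held SNORD2, SNORA4, SNORA63 and SNORA81 between 4.11 and 32.8 FPKM, and only SNORA63 exceeded the 27.6 FPKM of EIF4A2. Members of 1 host thus differed among themselves by up to 11.7 times in GAS5 and 2.54 times in SNHG1.

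**Figure D5:**
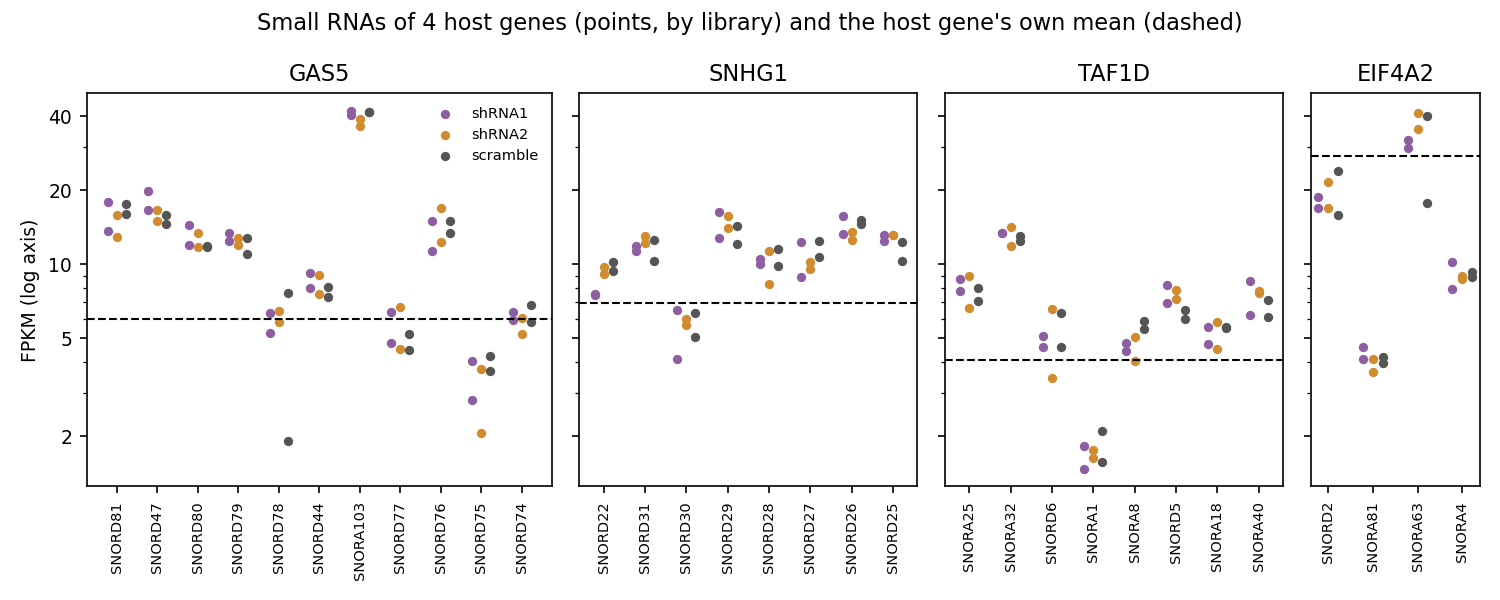
FPKM (log axis) of the small RNAs of GAS5, SNHG1, TAF1D and EIF4A2, in genome order, per library in shRNA1, shRNA2 and scramble; dashed lines are the mean of the host gene. In GAS5 8 of 11 and in SNHG1 7 of 8 RNAs lie above the host, in EIF4A2 1 of 4.

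Of 139 tested hosts 120 had a negative log2 fold change of knockdown against scramble with a median of -0.11, beside 11455 of 18162 genes tested with a median of -0.03, while 120 of 208 intronic members with a host value were positive with a median of 0.05. Neither a member nor a host passed in that comparison. Across those 208 members, of 126 hosts and the same libraries, Spearman's rho between the fold change of member and host was 0.05, and across 24 exonic members of 22 hosts it was 0.32. For GAS5 the log2 fold change of knockdown against scramble was -0.13 (adjusted p = 0.277, limma with Benjamini-Hochberg adjustment), and the median of its 11 members was 0.08.

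The proteins that carry these RNAs were measured too, as messenger RNA. Of 12 genes for box C/D core proteins and assembly factors 0 passed in any comparison, with 11 of 12 negative and a median of -0.07 in knockdown against scramble. FBL, which codes for fibrillarin, had 9.41 and 9.21 FPKM in shRNA1, 7.88 and 7.74 FPKM in shRNA2 and 9.70 and 12.6 FPKM in scramble. Its log2 fold change of knockdown against scramble was -0.34 (adjusted p = 0.261), and RUVBL1, an assembly ATPase, stood at -0.18 (adjusted p = 0.247, limma with Benjamini-Hochberg adjustment). Of 5 tested H/ACA genes 0 passed and all 5 were negative with a median of -0.13. DKC1, which codes for dyskerin, had 4.44 and 4.66 FPKM in shRNA1, 4.43 and 4.52 FPKM in shRNA2 and 4.91 and 5.07 FPKM in scramble. Of 6 tested Cajal body and trafficking genes, among them COIL, the gene of the Cajal body scaffold coilin, 0 passed, with a median of -0.09. Of 9 tested trimming and decay factors, such as NCBP1 and TOE1, 0 passed, with a median of -0.06.
Of 10 genes of rRNA synthesis and early processing, such as UBTF, NCL and NPM1, 0 passed, with a median of -0.12. Of 17 tested noncoding or snoRNA-rich host genes 0 passed, with a median of -0.11, and SNHG8 stood lowest at -0.48 (adjusted p = 0.136, limma with Benjamini-Hochberg adjustment). Of 16 other structured RNAs 0 passed, with a median of -0.14. RNU1-1, an RNA of the U1 spliceosomal particle, had 241 and 224 FPKM in shRNA1, 228 and 259 FPKM in shRNA2 and 323 and 288 FPKM in scramble, and RNU12, of the minor spliceosome, had 22.7 and 22.6 FPKM in shRNA1, 20.6 and 27.1 FPKM in shRNA2 and 31.02 and 31.7 FPKM in scramble. In both, scramble was above every knockdown library.

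Markers of neural progenitors, forebrain and neurons were measured as summed levels per library. The 6 neural progenitor markers summed to 154 to 154 FPKM in shRNA1, 163 to 166 FPKM in shRNA2 and 166 to 179 FPKM in scramble, and the 4 forebrain markers to 74.8 to 75.6 FPKM in shRNA1, 75.6 to 79.6 FPKM in shRNA2 and 73.5 to 79.1 FPKM in scramble. The 5 neuron markers, of which 4 passed the filter, summed to 340.3 to 345 FPKM in shRNA1, 293 to 293 FPKM in shRNA2 and 326 to 332 FPKM in scramble, lowest in shRNA2 and without overlap between the groups. None of these 3 lists had a gene past the test in any comparison. For shRNA2 against scramble, unadjusted p was under 0.05 in 4 of 6 progenitor, 1 of 4 forebrain and 1 of 4 tested neuron markers. Over all genes that share was 19.2%. For knockdown against scramble 2, 2 and 0 of them had such a p, beside 13.8% of all genes. The pluripotency genes POU5F1 and NANOG were under 0.07 FPKM. The marker list of choroid plexus (TTR, CLIC6, AQP1) and that of mesenchyme (COL1A1, COL3A1, TWIST1) had 1 of 3 genes each above the filter. TTR had 0.497 and 0.785 FPKM in shRNA1, 0.0577 and 0.0632 FPKM in shRNA2 and 6.03 and 6.63 FPKM in scramble, and COL3A1 had 0.538 and 0.476 FPKM in shRNA1, 0.0790 and 0.0459 FPKM in shRNA2 and 3.16 and 3.49 FPKM in scramble. Both fell in knockdown against scramble (adjusted p = 0.00761 each, limma with Benjamini-Hochberg adjustment). The summed choroid plexus list was at 0.752 to 0.953 FPKM in shRNA1, 0.247 to 0.306 FPKM in shRNA2 and 6.51 to 6.99 FPKM in scramble, and the summed mesenchyme list at 0.654 to 0.667, 0.187 to 0.244 and 3.79 to 4.39 FPKM in the same order of groups. LIN28A, a pluripotency and early progenitor gene, had 2.86 and 2.86 FPKM in shRNA1, 5.90 and 5.63 FPKM in shRNA2 and 2.08 and 2.45 FPKM in scramble and rose in shRNA2 against scramble (log2 fold change 1.05, adjusted p = 0.0244, limma with Benjamini-Hochberg adjustment). These markers and the summed neuron list moved with the groups, and the summed progenitor list was lowest in shRNA1. The part of all these markers in the small RNA values was not tested.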

How the data were processed

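Total RNA was extracted with Trizol and depleted of ribosomal RNA, and libraries were made with a KAPA kit followed by bead size selection, per the labels' protocols. Per the submitters' processing notes the build was GRCh38, and the tools named are featureCounts 2.0.1, SAMtools 1.9, HISAT2 2.1.0 and Trimmomatic 0.39. The authors deposited FPKM per gene and library, normalized by gene length and library total, per the file headers; whether counting used strand was not given in the sources used here. FPKM divides by length, so a few reads set the value of a short RNA, and bead selection can lower short fragments; neither effect was measured.

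From these values, limma 3.58.1 in R 4.3.3 was fitted to log2(FPKM + 1) for the 18162 genes whose mean reached 1 FPKM, all 3 groups in one fit with a trended prior and Benjamini-Hochberg adjustment, after being tested on simulated data. Fold changes on this scale understate those of low genes. Circular RNA knockdown is the mean of both hairpins against scramble. Reads per member were worked out from the FPKM steps with RefSeq gene lengths for 198 members and GENCODE 29 lengths for 39; of these 237 members, 25 gave whole reads (within 0.005) in all 6 libraries and 36 in none, and fractional values are estimates. Hosts and exons came from the GENCODE 29 basic annotation. All 257 members matched a RefSeq symbol (GRCh38.p14), and 202 had a single GENCODE transcript.

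The members and gene lists were chosen with earlier results of these data known. Named members were those called, otherwise the 2 of each direction and class with the smallest p, the 5 highest, the 3 with the largest and the 3 with the smallest spread per class, the rRNA precursor list, the 3 on either side of the level minimum, and the members of the 4 hosts with most members (a tie for the fourth was broken alphabetically); for other lists, up to 4 genes with the smallest p in the knockdown comparison could be named. One member and 1 marker gene that these rules name are not reported here. Members singled out when a scramble library was left out were chosen after their values were seen. Alternatives covered the pseudocount, the filter, scaling, a replicate block, the trend, the libraries fitted, the membership minimum and leaving out each library; leaving out exonic members was added after seeing the data.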

Additional observations from a re-analysis of the deposited data

Results flagged for a closer look

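In 2 of 257 members (0.778%) both shRNA1 libraries lay on one side of the scramble libraries and both shRNA2 libraries on the other, which was the case in 4.57% of all genes tested. SCARNA16, in SNHG20, had 1.16 and 1.57 FPKM in shRNA1, 1.87 and 1.95 FPKM in shRNA2 and 1.74 and 1.66 FPKM in scramble. Its log2 difference of shRNA2 minus shRNA1 was 0.30 (SE 0.10, adjusted p = 0.252, limma with Benjamini-Hochberg adjustment). SNORA37, in MBD2, had 4.61 and 5.43 FPKM in shRNA1, 6.12 and 7.27 FPKM in shRNA2 and 5.98 and 5.93 FPKM in scramble. Its log2 difference was 0.35 (SE 0.10, adjusted p = 0.232, limma with Benjamini-Hochberg adjustment). Neither difference between the hairpins passed the test.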

How the results depend on the processing

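Of the 45 tested values of named members, 36 kept their direction and their side of the threshold under every alternative tried. SCARNA21 (shRNA1 against scramble, 0.10) turned to -0.012 when libraries were centred on the members, and ranged from -0.10 to 0.29 when single libraries were left out; the cause was not tested. The 1 C/D call of shRNA2 against scramble became 0 with a pseudocount of 0.1, no filter, the replicate block or no trend. It also became 0 with only the libraries of the 2 sides or with members at 5 FPKM. Median of ratios gave 2 C/D calls, 1 higher and 1 lower, beside 75 of 18162 genes. Centring gave 2, both lower, beside 50 of 18162 genes. A filter at a mean of 5 FPKM, which SNORD111 does not reach, gave 3 of 69 C/D RNAs, 1 higher and 2 lower. It also gave 1 of 13 Cajal body RNAs, beside 261 of 4583 genes. In knockdown against scramble, centring gave 1 of 138 C/D RNAs, which was lower, beside 30 of 18162 genes. Fitting only the libraries of both hairpins called 6 of 138 C/D and 1 of 98 H/ACA RNAs for shRNA2 against shRNA1. Over all genes 957 of 18162 passed there. That fit rests on the same hairpin libraries as the fits that left out a scramble library. Without exonic members no count of calls changed.

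H/ACA medians of 0.06, 0.03 and 0.10 (knockdown, shRNA1 and shRNA2 against scramble) became -0.033, -0.078 and 0.016 when centred, and the last 0.18 under quantile normalization. Scaling moved the median of all genes by 0.01 (median of ratios) or 0.02 (quantile). Over all genes, the 15, 6 and 114 changed genes of these comparisons became 0, 0 and 0 without the filter, and 35, 3 and 261 at a mean of 5 FPKM, where shRNA2 against shRNA1 gave 46. Knockdown gave 27 with median of ratios, 30 with quantile normalization and 30 when centred. shRNA1 gave 2 with a pseudocount of 0.1, 12 when centred and 0 with its own libraries and scramble only. shRNA2 gave 75, 71 and 50 under those scalings, 35 without the trend and 1 with its own libraries and scramble only. shRNA2 against shRNA1 gave 957 with the hairpin libraries only.

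With the replicate block the counts were 1, 0 and 0. Correlations of same-numbered libraries were -0.01 (shRNA1 and scramble), -0.15 (shRNA2 and scramble) and 0.01 (shRNA2 and shRNA1). The labels do not say whether same-numbered libraries shared a culture or day, and these correlations cannot decide it.

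Leaving out single libraries gave 0 to 507 changed genes for knockdown, 0 to 1 for shRNA1, 0 to 2418 for shRNA2 against scramble and 0 to 1029 for shRNA2 against shRNA1. Calls ranged over 0 to 6 C/D, 0 to 2 H/ACA and 0 to 2 Cajal body RNAs for knockdown, 0 to 8, 0 to 7 and 0 to 4 for shRNA2 against scramble, and 0 to 6 C/D and 0 to 1 H/ACA for shRNA2 against shRNA1. H/ACA medians ranged from -0.10 to 0.15 (knockdown), -0.11 to 0.17 (shRNA1) and -0.087 to 0.22 (shRNA2), and the Cajal body median of shRNA2 from -0.23 to 0.23. The highest counts and both ends of these medians came without a scramble library. Each group had 2 libraries, and the median member 36.8 reads per library.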
